A study of Drosophila melanogaster with 6 samples.

Results

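CrebA is a bZIP transcription factor of the CREB3 family. In Drosophila it turns up genes of the secretory pathway, above all in the embryonic salivary gland. It is also made in the proventriculus, trachea and epidermis. Transcription factor binding far from gene ends is often found in introns and in the sequence between genes, where many enhancers of developmental genes lie. The regions described here are places where endogenous CrebA was found in whole wild-type embryos, away from the ends of genes, and where CrebA-GFP was not found with either salivary gland driver.

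The study has 3 immunoprecipitated ChIP-seq libraries, 1 per group, each with an input library, from Drosophila melanogaster embryos at stages 11 to 16. Oregon R embryos, a wild-type strain, were precipitated with an antiserum to CrebA, which is untagged there. In the other 2 groups the genotypes were fkh-GAL4::UAS-CrebA-GFP and sage-GAL4::UAS-CrebA-GFP, and an antibody to GFP was used. Each driver works in more than 1 tissue and the gland is the only tissue they share, so the driver lists cover part of the embryo. No genotype names a CrebA mutation, so the driver groups carry endogenous CrebA as well as CrebA-GFP as far as the labels tell. The antibody, the tagged protein, its amount and the tissues all differ between Oregon R and the drivers, and their parts in the absence of a driver peak cannot be told apart.

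Members were chosen from the peak lists themselves. Peaks of the 3 lists were merged where they overlapped by at least 1 bp, and regions were kept that held an Oregon R peak only, that had no summit within 1000 bp of the start or end of a protein-coding gene, and that did not lie on chromosome 4. This gave 3655 of 15071 merged regions (24.3%), or 26.0% of the 14039 Oregon R peaks. Each region held 1 peak. Of these regions, 3629 lay on the arms 2L, 2R, 3L, 3R and X, which are described below, 4 lay on Y and 22 on sequences not placed on an arm. Presence in Oregon R, absence from the driver lists and distance from gene ends come from the rule and are not results. With 1 library per group there is no replicate check and no test, and the driver lists are shorter, with 6464 peaks for fkh-Gal4 and 7916 for sage-Gal4. Peak lists give no read counts, so depth is unknown. All coordinates are on dm6.

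The distal regions were mostly low and narrow peaks with a tail that reached the top of the Oregon R list. Their fold enrichment at the summit, which is the authors' ratio over the local background, ran from 1.25 to 3.98 with a median of 1.71 (quartiles 1.58 and 1.98, n = 3629). The median width was 293 bp. For Oregon R only regions at gene ends (n = 3834) the median Oregon R fold was 1.80 and the median width 390 bp. For gene-distal regions found in all 3 lists (n = 1244) these were 2.0 and 1020 bp. The width there is that of peaks merged over 3 lists, and the fold is that of the highest Oregon R peak in the region. A −log10 q of 10 or more was reached by 719 distal regions (19.8%, 95% exact Clopper-Pearson interval 18.5 to 21.1%), while 40% of all Oregon R peaks reached it. In the highest decile of the Oregon R list by fold lay 267 of the regions (7.36%, against 10.1% of all Oregon R peaks). They made up 31 of the 100 highest peaks, near their share of 26.0% of all Oregon R peaks. All of these values come from the measure that chose the members, and they are a description.

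**Figure D1:**
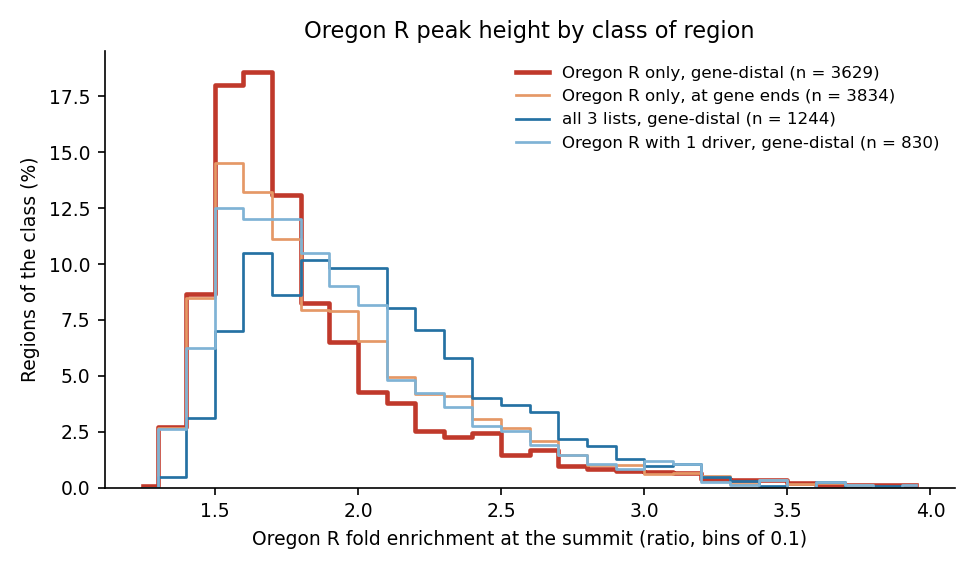
Share of regions (%, y axis) by Oregon R fold enrichment at the summit (ratio, x axis, bins of 0.1) for 4 classes of region on 2L, 2R, 3L, 3R and X. The line for Oregon R only, gene-distal regions stands highest at low folds, with a median of 1.71 against 2.0 for gene-distal regions in all 3 lists, and runs on to 3.98. Where a region held several Oregon R peaks, the highest was taken.

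The members with summits nearest to a gene end lay at 1001 bp from Prosap (fold 1.86), 1001 bp from Asph (1.66) and 1002 bp from TfIIA-S-2 (3.61). Just inside the window, and so not members, were regions at 998 bp from dve (2.12), 997 bp from CG44434 (1.5) and 997 bp from CG18747 (2.46). The smallest distance to a driver peak was 5 bp, for a region in cv-c with a fold of 1.68.

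The 12 highest regions lay partly inside large genes and partly between genes. The highest peak of the whole Oregon R list, chr3L:6652209-6653736, was a member with a fold of 3.98 and lay between genes, 11164 bp from eIF4E4, a cap-binding protein gene. Next was chrX:842776-844260 in CG43867 (fold 3.97), followed by chrX:9744702-9745296 in Sp1, a zinc finger factor gene of leg growth (3.96). A region of 3.91 at chr2L:17327356-17328684 had CG45691 as its nearest gene, at 7322 bp. Folds of 3.89 were shared by chr3L:11918175-11918999 in CG44837, chr3R:29375382-29377813 near the receptor phosphatase gene Ptp99A, and chrX:10249902-10250379 in Hk, which encodes a potassium channel beta subunit. The summit near Ptp99A stood 1058 bp from the gene, while the region itself reached over the gene end at 29377646.

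After these came chr3L:20910071-20911033, 4168 bp from CG11458 (3.87), and chr2L:17702052-17703349 inside CadN, the neural cadherin gene (3.82). The last of the 12 were chrX:3840479-3842280 in ec (3.77), chr2R:14433030-14434901 between genes and within 1000 bp of the transcript lncRNA:CR45277 (3.77), and chr2L:17620826-17622028, 4359 bp from CG15147 (3.75). Of the 12, 6 had the summit inside a protein-coding gene and 6 between genes. Driver peaks lay 645 and 691 bp away from the regions at lncRNA:CR45277 and in ec, and between 7739 and 106988 bp away from the other 10.

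The distance to driver peaks is bound up with the rule, which removes every region that touches a driver peak and so bears more on wide regions, and nothing is read from its order over peak heights. The median distance from a distal region to the nearest fkh-Gal4 or sage-Gal4 peak was 4074 bp, and gene-distal positions taken every 1000 bp had a median of 14843 bp. In the lowest quintile of fold (1.25 to 1.55, n = 726) the median distance was 1647 bp, and 39.9% of regions had a driver peak within 1000 bp. In the next quintiles the median was 2613, 3635 and 5557 bp. In the highest quintile (2.09 to 3.98, n = 726) it was 9995 bp, with 10.5% within 1000 bp, while 8.80% of the gene-distal positions had a driver peak that near. In every quintile the median was below that of gene-distal positions. Width ran from a median of 210 bp in the lowest to 513 bp in the highest quintile. The X chromosome held 7.99% of the lowest quintile and 17.1 to 19.6% of each of the others.

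**Figure D2:**
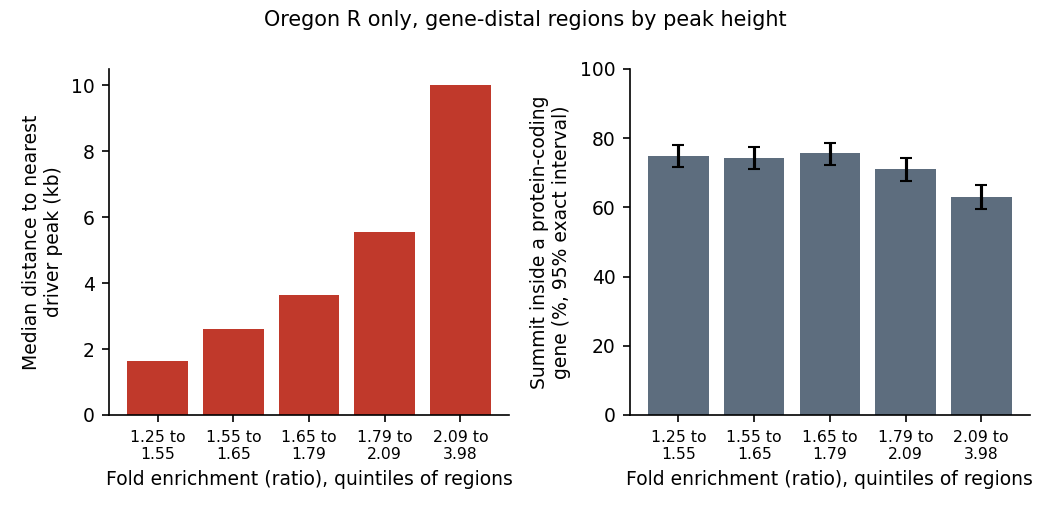
Left, median distance in kb from an Oregon R only, gene-distal region to the nearest driver peak, by quintile of Oregon R fold enrichment (ratio, x axis). Right, share of regions with the summit inside a protein-coding gene, with bars for 95% exact intervals. The distance, which the choice of regions partly sets, is 1647 bp in the lowest and 9995 bp in the highest quintile, and the share inside genes goes from 74.9% to 63.1% between the lowest and the highest quintile.

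Most distal regions lay inside genes. A protein-coding gene span held the summit of 2606 regions (71.8%, 95% exact interval 70.3 to 73.3%), and 65.1% of the gene-distal sequence lies in such spans. Per 100 kb of gene-distal sequence there were 4.01 regions inside genes and 2.93 between them, a ratio of 1.37. The strong regions had the opposite order. Where −log10 q was 10 or more the ratio was 0.882, since 26.6% of the 1023 regions between genes and 17.2% of those inside genes were that strong. The share inside genes was 74.9% in the lowest quintile of fold (95% exact interval 71.6 to 78.0%) and 63.1% in the highest (59.5 to 66.6%). The median fold was 1.70 inside genes and 1.75 between them. Gene-distal regions found in all 3 lists lay inside genes in 84.6% of cases (82.5 to 86.6%). Exons and introns were not told apart, as the gene table used gives only the start and end of each gene. The sparse stretches described below count in these densities, and their part in the ratio was not tested.

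By arm there were 3.93 regions per 100 kb of gene-distal sequence on 2R, 3.87 on 2L, 3.66 on 3L, 3.50 on 3R and 3.24 on X. X held 16.1% of the regions (95% exact interval 14.9 to 17.3%) and 18.0% of the gene-distal sequence, and 2R held 20.3% (19.0 to 21.7%) and 18.8%. On each of the 5 arms the density was higher inside genes than between them, from 3.61 against 3.23 on 3R to 4.69 against 2.67 on 2R and 3.74 against 2.1 on X.

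**Figure D3:**
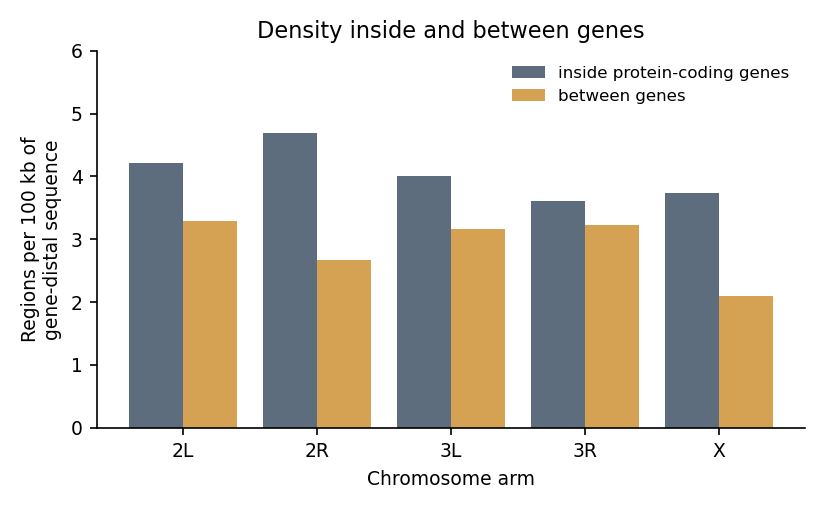
Oregon R only, gene-distal regions per 100 kb of gene-distal sequence (y axis) on each chromosome arm (x axis), inside protein-coding genes and between them. Density inside genes is the higher on every arm shown, from 3.61 on 3R to 4.69 on 2R. Stretches with few regions are included in the sequence.

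The density fell with distance from gene ends. Between 1000 and 2000 bp from an end there were 4.95 regions per 100 kb, between 5000 and 10000 bp 3.99, between 20000 and 50000 bp 2.66, and beyond 50000 bp 0.604 (54 regions). The median distance was 5011 bp. The median fold was 1.70 in the nearest class, 1.75 between 20000 and 50000 bp, and 1.90 in the farthest class. Stretches of 1 Mb differed widely. The densest lay on 3L from 3000001 to 4000000, with 67 regions or 9.34 per 100 kb, the median of 132 stretches was 3.91, and the first 1 Mb of 3R held 0. Sparse stretches lay side by side. No stretch exceeded 0.308 per 100 kb on 3R up to 4000000, 0.932 on 2R up to 6000000 or 0.635 on 3L from 23000001 to 28000000. Their part in the fall with distance, in the densities inside and between genes, and in the driver distance of gene-distal positions was not tested.

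The regions were unevenly spaced. The median gap to the next region was 12448 bp, and 35.7% of the gaps were 5000 bp or less. With runs formed by gaps of at most 5000 bp, 1635 regions stood alone and 1186 (32.7%) lay in 298 runs of 3 or more. Regions that stood alone had a median fold of 1.77, and 26.9% reached a −log10 q of 10. Those in runs of 5 or more had a median of 1.64, and 10.5% reached it, so that dense groups consisted mainly of low peaks.

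The longest run lay on the 5S rRNA gene cluster, whose repeated genes are transcribed by RNA polymerase III. On 2R from 19728663 to 19766257, a stretch of 37.6 kb between CG8517 and Or56a, there were 26 regions, and 96 rRNA genes are annotated there. Their folds ran from 1.29 to 1.77 with a median of 1.46, and none reached a −log10 q of 10. Neither driver list had a peak within the run, and the nearest driver peak stood 422 bp before the first region. Members of this cluster are near-identical copies, so where reads were placed among them is uncertain. How reads with several matches were handled is not given in the sources used here, and its part in these peaks was not tested.

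Of the other long runs, the next lay in tkv, the gene of a type I receptor for Dpp, with 12 regions on 2L from 5225535 to 5245679 and folds of 1.5 to 2.17. A run of 11 on 3L from 799859 to 822677 began in CG13898 and went on towards Sf3b3, which encodes a splicing factor subunit, with folds of 1.51 to 2.84. Between CG16721 and the actin gene Act5C on X, 10 regions filled 10 kb with folds of 1.43 to 2.03. Runs of 9 lay on 3R in CG42327 (folds 1.47 to 2.39) and in CG42693, with the repressor gene ttk as the next gene (1.36 to 1.92). Driver peaks, which the rule keeps out of the regions themselves, lay between the regions of the tkv, CG13898, Act5C and CG42327 runs, 2 or 3 in each, and 0 lay in the CG42693 run.

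Other genes of RNA polymerase III had distal regions beside them as well. Within 1000 bp of a tRNA gene lay 56 regions, near 76 of 290 tRNA genes. This is 21.5 regions per 100 kb of the gene-distal sequence there, against 3.63 over all gene-distal sequence. Their folds ran from 1.35 to 2.65 with a median of 1.74, and the highest, at tRNA:Gly-GCC-1-1 on 2L from 1937985 to 1938331, stood 18955 bp from a driver peak. Regions at tRNA:Pro-CGG-2-1 (2.63) and tRNA:Lys-CTT-1-11 (2.48) came next. Taking all peaks, 73.8% of tRNA genes had an Oregon R summit within 1000 bp, 50.7% a sage-Gal4 summit and 18.3% an fkh-Gal4 summit, so tRNA genes were not without driver peaks, and the 5S cluster was, with 0 of 98 rRNA genes on the arms in either driver list against 72 in Oregon R.

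Genes of small nuclear RNAs, the RNAs of the spliceosome and of other nuclear particles, had 5 regions beside them, or 15.4 per 100 kb. They lay at snRNA:U5:38ABb (fold 2.70), at snRNA:U2:34ABc with snRNA:U5:34A (2.23), at snRNA:7SKb (2.01), at snRNA:U2:38ABa with snRNA:U5:38ABb (1.73) and at snRNA:U7 (1.64). Small nucleolar RNA genes had 9 regions (6.61 per 100 kb), led by snoRNA:Me18S-C1968 at 2.95. Long noncoding RNA genes had 315 regions (5.44 per 100 kb) and antisense RNA genes 32 (4.34). The share of regions near long noncoding RNA genes was 8.68%, against 10.7% for gene-distal regions in all 3 lists. For microRNA genes these shares were 0.441 and 0.563%, so neither kind was particular to the Oregon R only regions. For tRNA genes they were 1.54 and 1.13%, for antisense RNA genes 0.882 and 0.482%, and for small nucleolar RNA genes 0.248 and 0.241%. For small nuclear RNA genes they were 0.138 and 0.0804%. Oregon R only regions at gene ends had shares of 3.78% for antisense, 0.73% for small nucleolar and 0.235% for small nuclear RNA genes. Their shares for microRNA, tRNA and long noncoding RNA genes were 0.652, 0.756 and 5.01%. MicroRNA genes had 16 regions (5.57 per 100 kb, folds 1.40 to 2.27). The highest was chr3R:16857088-16858207, at mir-iab-4 and mir-iab-8, the opposite-strand microRNAs of the bithorax complex, with a −log10 q of 17.9 and the nearest driver peak at 40831 bp. The next by fold were at mir-31a (2.06), mir-2282 (1.82), mir-317 (1.73) and mir-9a, which limits sense organ number (1.72). The regions at mir-1, a muscle microRNA (1.59), and mir-8, the fly member of the miR-200 family (1.49), were lower.

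**Figure D4:**
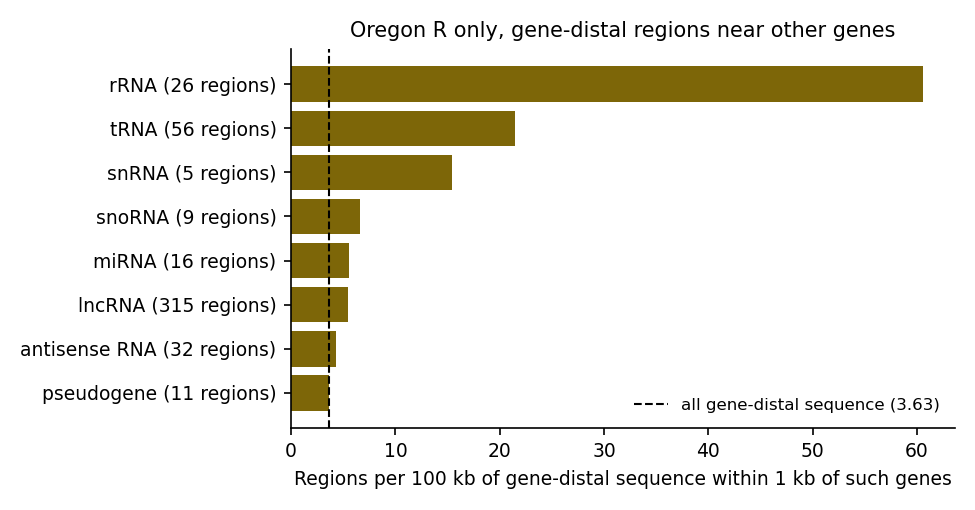
Oregon R only, gene-distal regions per 100 kb (x axis) of gene-distal sequence within 1 kb of genes of each other biotype (y axis, with the number of regions). The dashed line marks the density over all gene-distal sequence, 3.63, and the bars for rRNA, tRNA and snRNA genes reach 60.6, 21.5 and 15.4. Other classes of region are not shown.

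Inside protein-coding genes the regions fell on long genes. Of 13842 protein-coding genes on the arms, 1261 (9.11%) held at least 1 region, 431 held 2 to 4, and 121 held 5 or more. The median length of genes with a region was 18.2 kb, and that of all genes 2.15 kb. A region was found in 1.3% of genes up to 5 kb and in 34.3% of genes of 10 to 20 kb. The share was 53.1% at 20 to 50 kb, 67.3% at 50 to 100 kb and 80.7% in the 83 genes over 100 kb. Per 100 kb of gene-distal sequence, though, the longest genes had the fewest, with 2.40, and genes of 10 to 20 kb the most, with 5.40. Of the 1261 genes, 364 had no driver summit anywhere in the span (28.9%, or 2.63% of all protein-coding genes).

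The gene with the most regions was jing, which encodes a zinc finger factor, with 21 in 120.0 kb on 2R from 6502006 to 6621792. Their folds ran up to 2.04 and the region density was 18.3 per 100 kb. In the whole gene there were 26 Oregon R, 2 fkh-Gal4 and 7 sage-Gal4 peak summits. The overlapping genes Glut4EF and CG46467 held the same 17 regions, beside 16 fkh-Gal4 and 17 sage-Gal4 summits. The Krüppel-like factor gene luna also had 17, hth, the gene of a homeodomain cofactor of Hox proteins, had 15, and tkv had 14 in only 52.4 kb (32.6 per 100 kb). For hth the folds were 1.39 to 2.43, with the highest at chr3R:10587378-10587926.

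The other genes of the 12 with the most regions were Eip75B, a nuclear receptor gene induced by ecdysone (13), pum, which encodes a translational repressor (12), sick (12), heph, the gene of a polypyrimidine tract binding protein (11), nkd, a Wnt antagonist gene (11), and pnt, an ETS factor gene of the EGF receptor pathway (11). These genes differed in their driver summits: Eip75B had 19 fkh-Gal4 and 25 sage-Gal4 summits beside its 13 regions, and pum had 2 and 4. The highest fold in any of the 12 was 3.73, in sick, in a group of 4 regions that also took in snRNA:U5:38ABb.

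By density, among genes with at least 3 regions, CG45071 came first, with 3 regions in 2.85 kb of gene-distal sequence. It was followed by slf (3 regions), mib2, which encodes an E3 ubiquitin ligase (4), sug, a zinc finger gene (3), Men, the malic enzyme gene (5), and comm, which controls sorting of the guidance receptor Robo (3). The regions of Men had folds up to 1.92, and no Men, slf or CG45071 span held a driver summit. These densities rest on 3 to 5 regions each.

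Of 11 homeotic genes and cofactors, of median length 26.9 kb, 7 held a region. This is 63.6%, against 9.11% of all protein-coding genes and 53.1% of those of 20 to 50 kb. There were 9.39 regions per 100 kb of gene-distal sequence against 4.01 inside all genes. They were also high: the 7 genes each held a region with −log10 q of 10 or more, which 2.72% of all genes of any length did. The list had 2.62 such regions per 100 kb against 0.688 inside all genes. Antp, which specifies thoracic identity, held 9 regions with folds of 1.55 to 2.74, the highest at chr3R:6932405-6933356, with 0 fkh-Gal4 and 3 sage-Gal4 summits in the gene. Abd-B, the homeotic gene of the posterior abdomen, held 6, with folds of 1.5 to 2.59. In Scr, which specifies the salivary gland segment, and Dfd there were none, though 5 and 3 regions between genes had an end of Scr and of Dfd as the nearest.

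Of 21 segmentation genes, of median length 3.5 kb, 7 held a region, at 13.6 per 100 kb. This is 33.3%, against 9.11% of all genes and 1.3% of those up to 5 kb. Lengths differ within the list, with 15.6 kb for ptc and 17.2 kb for opa. In ptc, the Hedgehog receptor gene, 7 regions with folds of 1.43 to 1.70 lay beside 5 fkh-Gal4 and 2 sage-Gal4 summits. In opa, a zinc finger pair-rule gene, there were 3, and en, a homeobox gene, had 1 (1.62), while inv and hb had none. With −log10 q of 10 or more 1 of the 21 genes held a region (4.76%, against 2.72% of all genes), at 0.907 per 100 kb against 0.688 inside all genes.

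Signalling pathway genes, of median length 19.3 kb, held regions in 21 of 32 cases, at 11.0 per 100 kb. The share was 65.6%, against 9.11% of all protein-coding genes. Of all genes of 10 to 20 kb 34.3% held a region, and of those of 20 to 50 kb 53.1%. Next to tkv and pnt stood Egfr, the EGF receptor gene, with 8 regions up to a fold of 2.21, while the FGF gene bnl and the Wnt coreceptor gene arr had none. Between genes, 2 further regions had an end of bnl as the nearest. Genes of the ecdysone response, of median length 39.9 kb, held regions in 9 of 15 cases, at 6.35 per 100 kb. This is 60.0%, against 53.1% of all genes of 20 to 50 kb. EcR, the ecdysone receptor gene, had 7 regions up to 1.71 and Hr4, a nuclear receptor gene, 5 up to 2.79, beside 24 and 20 sage-Gal4 summits. Eip93F had no summit of any list, and ftz-f1, with 24 fkh-Gal4 and 28 sage-Gal4 summits, had no distal region. None of these 9 genes lacked a driver summit in its span, and 8 of them held a region with no driver peak within 1000 bp.

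Lists for tissues gave densities on either side of that of all genes. In the gut, hemocyte, epidermis, trachea and muscle lists, 31.2 to 53.3% of genes held a region, against 9.11% of all genes. Median gene lengths in these lists were 9.11 to 14.1 kb, and 34.3% of all genes of 10 to 20 kb held a region. Gut and proventriculus genes held regions in 7 of 17 cases at 10.6 per 100 kb: srp, a GATA factor gene of endoderm, fat body and blood cells, had 6 regions of 1.49 to 2.77, dpp had 3 and GATAe, a gut GATA factor gene, 2, while cad and drm had none. Hemocyte and fat body genes held regions in 5 of 16 cases at 8.15 per 100 kb, which count srp again, with 10 in ush, the gene of a cofactor of GATA factors, and 1 in crq, a scavenger receptor gene, while Pxn and Pvr had none. Epidermis and cuticle genes held them in 8 of 15 cases at 8.90 per 100 kb. Of these, sn, the fascin gene of bristles, had 6 regions up to 2.81, tyn 5 up to 2.66 with no driver summit, and grh, a factor of the epidermis, 4 up to 2.22. The genes dy and neo had none.

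Tracheal genes held regions in 5 of 15 cases at 2.69 per 100 kb, with 2 in rib, 2 in sano and 1 in knrl, and none in bnl or stumps. Between genes, though, 15 further regions had an end of a tracheal gene as the nearest. Muscle and mesoderm genes held regions in 9 of 18 cases at 4.13 per 100 kb, with 4 in Mef2 (up to 2.78), 4 in twi and 3 in Msp300, and none in wupA or up, which encode troponin subunits.

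Transcription factor genes of the nervous system, of median length 16.0 kb, held regions in 14 of 23 cases at 5.76 per 100 kb. This is 60.9%, against 34.3% of all genes of 10 to 20 kb. There were 4 in pros, 4 in the LIM homeobox gene tup and 3 in vnd, where 1 region at chrX:588842-589285 reached a fold of 3.16. Neither tup nor vnd had a driver summit, and Lim3 and dac had no region. Axon guidance and cell adhesion genes, with a median length of 55.3 kb, held regions in 17 of 27 cases at 3.14 per 100 kb. This is 63.0%, near the 67.3% of all genes of 50 to 100 kb. There were 10 in kirre, 10 in sli, the gene of the midline ligand of Robo, and 8 in Ten-m, and none had its summit in Ptp99A or side. Ion channel and synapse genes, of median length 37.8 kb, had the lowest density of the 13 lists, 1.67 per 100 kb in 6 of 17 genes. This is 35.3%, against 53.1% of all genes of 20 to 50 kb. Rim, a gene of the active zone, had 3, the potassium channel gene Shal 3, up to 2.98, and the sodium channel gene para 2. The genes nAChRalpha1 and Shab had no summit of any list.

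Secretory pathway genes, of median length 2.93 kb and with little gene-distal sequence, held regions in 4 of 40 cases, at 6.47 per 100 kb. This is 10%, against 9.11% of all genes and 1.3% of those up to 5 kb. There was 1 each in Gp93 (1.52), Sec16 (1.73) and Sec24CD (1.59) among them, and none in garz or Sec24AB. These 3 genes are 3.44, 13.9 and 5.74 kb long. None of the 4 genes lacked a driver summit, and no region of the list reached a −log10 q of 10. Densities of lists rest on few regions, 4 to 88 each, in genes that differ in length, and no list was tested against other genes.

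**Figure D5:**
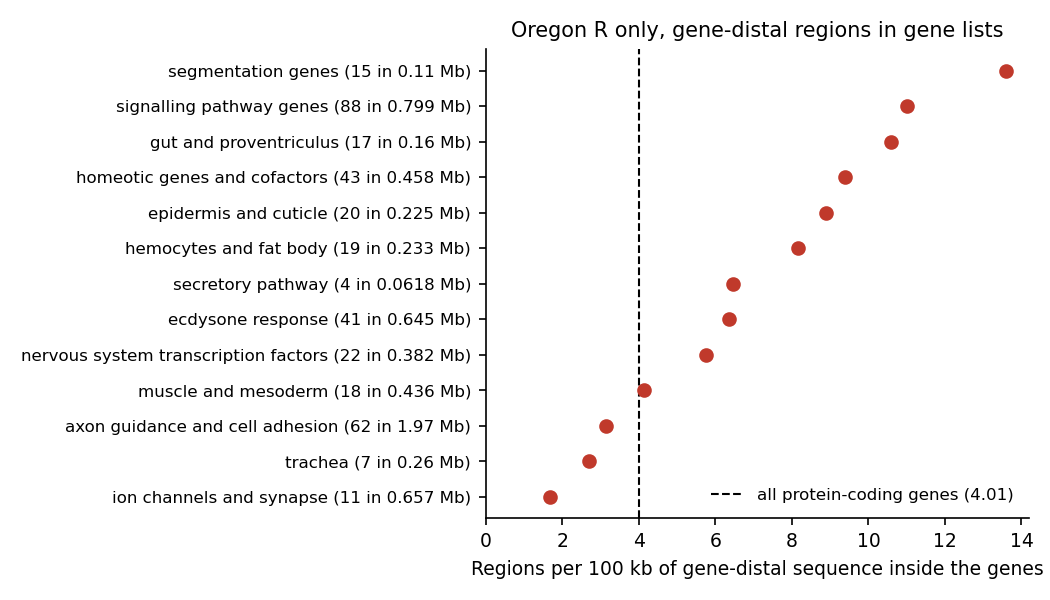
Oregon R only, gene-distal regions per 100 kb of gene-distal sequence inside the genes of 13 lists (x axis), with the number of regions and the sequence in Mb beside each name. The dashed line is the value for all protein-coding genes, 4.01, and the lists run from 1.67 for ion channels and synapse to 13.6 for segmentation genes.

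Between genes, the stretches with the most regions after the 5S rRNA cluster held 10 or 11 each. They are not covered by the naming rules and were chosen after their values were seen. On 3L, 11 regions lay between Or67d and CG12362 in 138.0 kb (folds up to 3.04) and 11 between CG7320 and CheA75a in 48.5 kb (up to 2.2), beside 7 and 12 driver summits. Between caup and mirr, homeobox genes of the Iroquois complex, 11 regions lay in 71.8 kb with folds up to 2.15, beside 8 driver summits. Between CG13898 and Sf3b3, in the run described above, there were 10 in 22.7 kb, beside 2 driver summits. Between CG16721 and Act5C 10 lay in 17.5 kb, beside 11 driver summits. Between vvl, a POU factor gene of the trachea, and Prat2 there were 10 in 117.0 kb, up to 2.42, beside 6 driver summits. At the start of X, between SteXh:CG42398 and CG17636, 10 regions had a median fold of 2.07 with 0 driver summits.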

How the data were processed

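Peak lists of 3 immunoprecipitated libraries were used. The input libraries enter only as far as the authors' peak calls used them, which is not given in the sources used here. Per the labels' protocols, the chromatin came from 2 collections of embryos, aged 11 h after an 8 h lay and crosslinked with 1.8% formaldehyde. Pooling of these is not stated. The submitters' processing notes name BWA, MACS2 2.1.0.20140616 and the build dm6. The deposited lists give a fold enrichment (a ratio over local background), −log10 p and −log10 q (a p-value and q-value by the authors' caller), a summit offset (an other unit, in bp) and a score, which was not used. The lowest −log10 q was 1.31, 1.3 and 1.31 for Oregon R, fkh-Gal4 and sage-Gal4.

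Gene starts and ends were read from RefSeq annotation of release 6, the assembly of dm6, which lists 13842 protein-coding genes for these 5 arms and no strand. Genes of the lists on chromosome 4 were left out with it, and a few other symbols did not match. Gene-distal sequence is all sequence over 1000 bp from any protein-coding gene end, 99.9 Mb or 75.4% of the arms, taken to the last gene or peak. A gene holds a region when the summit lies in its span. Members, gene lists and naming rules were chosen with earlier results of these data known. Genes named were the 12 highest regions, the 12 genes with most regions, the 6 of highest density, up to 3 genes with most regions and 2 with none in each of 13 lists, the 3 regions on each side of the 1000 bp limit and the 5 longest runs (6 with a tie). The genes of tRNAs, small nuclear and nucleolar RNAs and microRNAs, cv-c and the stretches between genes fall outside these rules and were chosen after their values were seen. The planned motif search and print of sequences were not run, since the sources used here hold no genome sequence. Intervals cover counting error only. For 2000 of 2000 simulated regions the code recovered the lists that held them and the side of the 1000 bp limit. Each simulated region stood apart from the others and had the same coordinates in every list that held it. Partial overlaps were therefore not tried. The code ran in Python 3.11.15 with pandas 2.3.3 and numpy 2.4.6. Intervals came from scipy 1.17.1 and plots from matplotlib 3.10.9.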

Additional observations from a re-analysis of the deposited data

Results flagged for a closer look

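Oregon R only, gene-distal regions were also present on sequence that the counts above leave out. Chromosome 4 held 174 of them in 1.05 Mb of gene-distal sequence, or 16.6 per 100 kb, against 3.63 on the 5 large arms. The Y chromosome and sequences not placed on an arm held 26, where gene ends are few or not annotated.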

How the results depend on the processing

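No paired analysis was possible because each group has 1 library, and no replicate could be left out. The motif alternatives were not run. Of all values, 1 changed direction: the density inside over between genes was 1.37, and 0.882 with Oregon R peaks of −log10 q of at least 10. It was 1.24 with 500 bp around gene ends, 1.56 with 2000 bp, 1.55 with gene ends of every biotype, 1.19 with no driver peak within 1000 bp and 1.22 with the q limit in all 3 lists. The share inside genes was 73.3% with 2000 bp, 75.4% with every biotype, 68.9% with no driver peak near, 62.2% with the limit on Oregon R and 69.5% with it in all lists. The median fold was 1.75 with no driver peak near, 2.46 with the Oregon R limit and 2.40 with the limit in all lists. These 2 limits left 719 and 1246 regions and 377 and 656 genes with a region; X held 17.9% with the Oregon R limit. With that limit 2.72% of all protein-coding genes held a region. In the lists these were 1 of 21 genes for segmentation, 6 of 23 for nervous system factors, 7 of 27 for axon guidance and 3 of 17 for ion channels. They were 1 of 15 for trachea, 3 of 17 for gut, 3 of 15 for epidermis and 5 of 18 for muscle. For hemocytes they were 3 of 16, for ecdysone 5 of 15, for signalling 8 of 32 and for the secretory pathway 0 of 40. Segmentation genes numbered 11 of 21 with 500 bp, where 11.8% of all genes held a region. Secretory genes numbered 1 of 40 with no driver peak near, where 7.2% of all genes did. The other 67 alternative values kept within 1.5 times for counts or within the 95% interval otherwise. Those with each Oregon R peak counted were bound to do so, since each region held 1 peak, and they say nothing about stability.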
